A study of Mus musculus with 3 samples.

Results

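The genes described are 10 regulators and adhesion receptors of the transition between epithelial and mesenchymal cells, chosen by name: the transcription factor genes Snai1, Snai2, Zeb1, Zeb2, Twist1 and Twist2 and the classical cadherin genes Cdh1, Cdh2, Cdh3 and Cdh11. All 10 were found among the 21782 genes of the count table. The samples were mouse embryo fibroblasts (MEFs) of WT genotype, isolated from E12.5 embryos and grown in medium with serum. They are labelled as WT controls, and no treatment is named for them in the sources used here. Asynchronous cultures of 3 clones gave 1 library of polyA-selected RNA each, so the 3 libraries are the replicates of 1 condition, and no conditions were compared. Whether the clones came from separate embryos is not given in the sources used here, and differences between them can come from the clone, its culture or its library.

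Epithelial cells hold on to each other through E-cadherin, the product of Cdh1, whose inner end binds catenins that reach the actin cytoskeleton. Snail, Zeb and Twist proteins are DNA-binding factors that act on E-box sequences, and Snail and Zeb proteins are best known as repressors of Cdh1 and of other epithelial genes during gastrulation, neural crest migration and carcinoma invasion. Mesenchymal cells such as fibroblasts carry other cadherins, in particular N-cadherin (Cdh2) and cadherin-11 (Cdh11), also called OB-cadherin.

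The libraries held between 22594316 and 25261357 counts on genes, and the largest was 1.12 times the smallest. Counts were scaled to counts per 1000000 (CPM) with TMM factors, which correct the library size for a few abundant genes. In these units, 3 counts, the level that a count of 0 still allows, were 0.119 to 0.133 CPM. Genes that reached 1 CPM in each of the libraries counted as expressed, and 11367 did so. Levels of different genes were ordered per kb of transcript, and shares or orders in counts are named as such, with the median expressed gene at 8.48 CPM per kb. Whether a gene differed between clones was tested by comparing its counts with the scaled library sizes (Pearson chi-square), and p-values were adjusted by the Benjamini-Hochberg method over the 12218 genes that had 10 or more counts throughout. The test compares libraries with counting noise and not conditions, and 62.5% of all tested genes passed it at an adjusted p-value of 0.05. All 10 fibroblast markers were expressed, with a summed level of 46108 to 57186 CPM. Most of it came from Col1a1 (mean 27713 CPM) and Col1a2 (14380 CPM), whereas Pdgfra (18.6 CPM), Dcn (7.73) and Lum (2.03) were far lower. Of 10 epithelial markers, which include Cdh1, only 2 were expressed, Krt18 and Krt19. Some markers of other lineages were expressed too. These were 4 of 6 for cartilage, 5 of 9 for neural and neural crest cells, 2 of 9 for muscle and 1 of 7 for endothelium. Cartilage markers summed to 549 to 799 CPM, mostly from Col2a1 (mean 649 CPM). Neural and neural crest markers summed to 651 to 959 CPM, mostly from Nes (mean 753 CPM). Muscle markers summed to 200 to 224 CPM and endothelial markers to 11.8 to 23.0 CPM. The endothelial marker Emcn (307, 4 and 242 counts) was below 1 CPM in clone 2 only. The libraries also carried macrophage transcripts, 13 of the 14 listed markers being expressed, and their summed level was 2015 CPM in clone 2 beside 420 CPM in clone 1 and 352 CPM in clone 3. In bulk RNA, a change in the number of cells of a type and a change in RNA per cell cannot be told apart.

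Of the 10 genes, 9 were expressed in every clone, and the exception was Cdh1. Per kb of transcript, the order of mean levels was Cdh11 at 114 ± 4.41 CPM per kb (SD, n = 3 clones, here and below), Cdh2 at 74.1 ± 7.24, Cdh3 at 24.96 ± 5.34, Snai1 at 24.8 ± 5.66, Twist2 at 17.0 ± 6.09, Twist1 at 16.3 ± 1.58, Snai2 at 14.2 ± 1.62, Zeb1 at 12.9 ± 1.12, Zeb2 at 9.48 ± 0.724 and Cdh1 at 0.0373 ± 0.00903 CPM per kb. Cdh11 was above 95.2% of expressed genes on this scale, and Zeb2, the lowest of the expressed members, was above 53.2%. Between neighbours in this order, the ranges over the clones stayed apart for Cdh11 and Cdh2, for Cdh2 and Cdh3, for Zeb1 and Zeb2 and for Zeb2 and Cdh1. From Cdh3 down to Zeb1, no pair of neighbours was separated, although Snai1 was above Twist2 and Twist1 above Snai2 in each of the 3 clones. Among these 6 genes, 7 of 15 pairs had ranges that did not overlap, such as Cdh3 and Twist1. Of all 45 pairs of members, 37 had ranges that did not overlap.

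**Figure D1:**
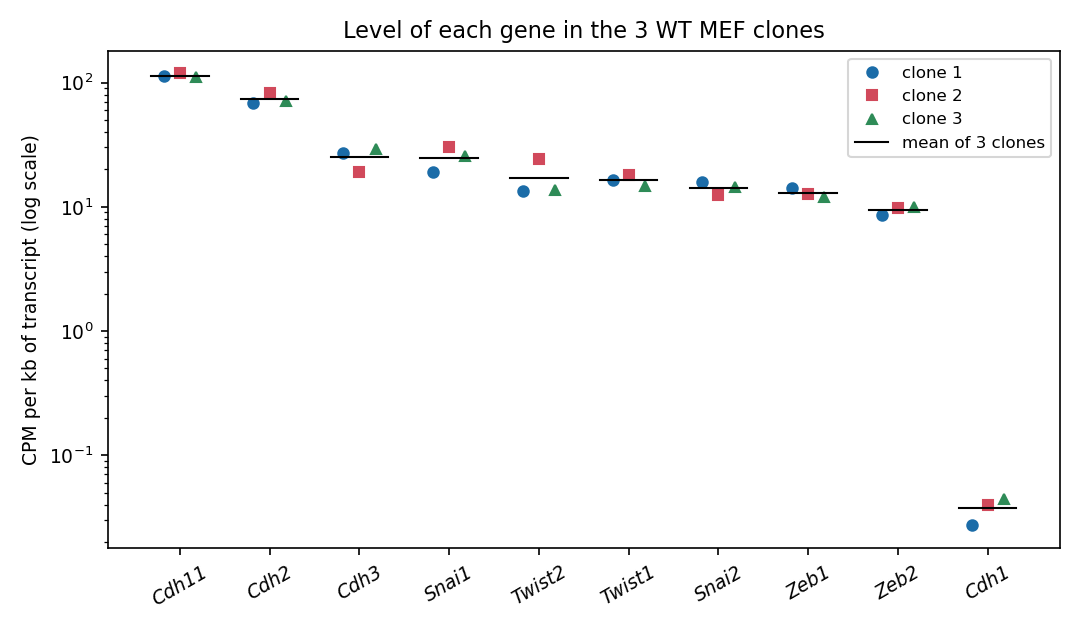
Level of each gene in CPM per kb of transcript (log scale) in the 3 WT MEF clones, with 1 point per clone and a line at their mean. Cdh11 and Cdh2 stand above the other genes, the 6 transcription factor genes and Cdh3 lie together between 8.65 and 30.1, and Cdh1 lies more than 2 orders of magnitude below all of them.

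The Snail factors are zinc-finger repressors with a short amino-terminal domain that recruits corepressors. In GRCm38, the Snai1 gene spans 167538195 to 167542814 of chromosome 2. The Snai2 gene, which encodes Slug, spans 14705852 to 14709385 of chromosome 16, and both have 3 exons and are read from the plus strand. The proteins have 264 and 269 residues, and 57.1% of 254 aligned residues were identical. Snai1 had 760, 1101 and 1044 counts in clones 1, 2 and 3, which correspond to 30.6, 48.8 and 41.3 CPM. Clone 1 was the lowest library for this gene, and the highest was 1.60-fold above it (adjusted p = 1.65e-21, chi-square test between libraries).
Snai2 had 792, 571 and 730 counts in clones 1, 2 and 3, or 31.9, 25.3 and 28.9 CPM. Its order was the opposite of that of Snai1, with clone 1 highest and clone 2 lowest, and the difference was smaller, at 1.26-fold (adjusted p = 0.000369). It was past the threshold only between clones 1 and 2, since without clone 1 the adjusted p was 0.0553 and without clone 2 it was 0.115. Of the Snai1 and Snai2 counts together, Snai2 took 51.0% in clone 1 (95% Wilson interval 48.5 to 53.5), 34.2% in clone 2 (31.9 to 36.5) and 41.1% in clone 3 (38.9 to 43.5), where the intervals cover counting error only. Per kb of transcript (1621 nt for Snai1 and 2021 nt for Snai2), the Snai2 share was 36.9% ± 8.12, and Snai1 was the more abundant in every clone. With coding length in place of the transcript, clone 1 moved to the other side, at 50.6% for Snai2. An exact paired test over 3 clones cannot go below p = 0.25, so no test was made of the order of any pair.

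The promoter table of RefSeq (GRCm38.p6) held windows of 250 bases before to 50 bases after the start for Snai1, Zeb2, Twist1 and Twist2. They were searched for the E-box CAGGTG and its reverse complement CACCTG, the form that Snail and Zeb proteins bind, which was present in 20.2% of all 32851 windows. The Snai1 window had 1 such match, and none was found in the 4 windows of Zeb2 or in those of Twist1 and Twist2. The Snai1 match is shown because the E-box is the sequence through which these factors act, with the 6 motif letters in capitals, at chr2:167538057-167538086 on the plus strand of GRCm38, where the motif begins 126 bases before the start.
Snai1 promoter: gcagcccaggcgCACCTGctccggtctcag
A match is a description of the sequence and does not show that a factor is bound there. Snai2, Zeb1, Cdh1, Cdh2, Cdh3 and Cdh11 were not matched in the table.

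The Zeb factors are large repressors with a cluster of zinc fingers at each end and a homeodomain-like part between them. Zeb2 spans 44983632 to 45117395 of chromosome 2 and is read from the minus strand. The proteins have 1117 and 1259 residues, with 49.5% identity over 1070 aligned residues. Zeb1 had 2045, 1646 and 1762 counts in clones 1, 2 and 3, or 82.3, 73.0 and 69.8 CPM. Clone 1 stood above the other two, by 1.18-fold over the lowest (adjusted p = 2.57e-06), and clones 2 and 3 could not be told apart (1.05-fold, adjusted p = 0.338 without clone 1).
Zeb2 had 1146, 1185 and 1340 counts, or 46.1, 52.6 and 53.1 CPM. Here clone 1 was the lowest, by 1.15-fold (adjusted p = 0.00156), and clones 2 and 3 differed by 1.01-fold (adjusted p = 0.892 without clone 1). Zeb2 is also transcribed in macrophages, and between these clones 2 and 3 the summed macrophage markers were 2015 and 352 CPM. The part of macrophages in the Zeb2 level was not tested. In every clone, Zeb1 had more counts than Zeb2. The share of Zeb2 in the summed Zeb counts was 35.9% in clone 1 (95% Wilson interval 34.3 to 37.6), 41.9% in clone 2 (40.1 to 43.7) and 43.2% in clone 3 (41.5 to 44.9). Per kb of transcript (5801 nt for Zeb1, 5335 nt for Zeb2) it was 42.3% ± 3.94, and it was 25.9% per kb of all merged exons, since the annotated exons of Zeb2 cover 19942 bp and those of Zeb1 10266 bp. Zeb1 stayed above Zeb2 with each length used. Exons annotated on the opposite strand cover 3.27% of the exon length of Zeb2 (Zeb2os) and 1.93% of that of Zeb1 (Gm10125). Whether reads were assigned to genes by strand is not given in the sources used here.

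Zeb1 and Zeb2 messages are the best known targets of the miR-200 family, small RNAs of epithelial cells that pair with the 3' UTR through their seed, bases 2 to 8 of the mature RNA. The 5 members fall into 2 seed groups that differ at 1 base. Their mature sequences from RefSeq (GRCm38.p6) are shown with the seed in capitals, because the target sites below are its complement.
mmu-miR-200b-3p: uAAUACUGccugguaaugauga
mmu-miR-200c-3p: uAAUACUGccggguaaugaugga
mmu-miR-429-3p: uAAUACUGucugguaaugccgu
mmu-miR-200a-3p: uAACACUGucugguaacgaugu
mmu-miR-141-3p: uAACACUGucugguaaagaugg
The genes of miR-200b, miR-200a and miR-429 lie on chromosome 4 and those of miR-200c and miR-141 on chromosome 6. The rows of all 5 genes held 0 counts in every clone, which allows up to 3 counts per library. Counts of polyA-selected RNA do not measure mature miRNAs, and only 121 of the 614 miRNA rows of the table held any count. The 3' UTR of Zeb2 (1450 nt in the transcript used) held 5 matches to the first seed (CAGTATT) and 3 to the second (CAGTGTT), and that of Zeb1 (2401 nt) held 5 and 4. No other of the 2694 3' UTRs of like length (0.8 to 1.25 times) held as many as the 8 of Zeb2, and no other of the 2345 of like length as many as the 9 of Zeb1. Over all genes with a 3' UTR of at least 100 nt, 26.0% held 1 or more. Among the other members, Snai2 had 2 matches, Snai1 and Cdh11 had 1 each, and Twist1, Twist2, Cdh1, Cdh2 and Cdh3 had none. The first and last site of each kind in Zeb2 are shown, with the seed match in capitals, on the minus strand of chromosome 2 of GRCm38.
Zeb2 site at chr2:44988354-44988376: aaaaattttgtaCAGTGTTaagg
Zeb2 site at chr2:44988170-44988192: actaccatacatCAGTATTttat
Zeb2 site at chr2:44987781-44987803: ttgcaccagcttCAGTGTTaagc
Zeb2 site at chr2:44987524-44987546: tactgtagtgtaCAGTATTatag

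The Twist factors are basic helix-loop-helix proteins of embryonic mesoderm and cranial mesenchyme that bind DNA in pairs with E-proteins. Twist1 spans 33957671 to 33959829 of chromosome 12 and Twist2 spans 91801461 to 91848028 of chromosome 1, with the plus strand read for each. The proteins have 206 and 160 residues and are the most alike of the pairs compared, with 82.5% identity over 160 aligned residues. Twist1 had 660, 658 and 607 counts in clones 1, 2 and 3, or 26.6, 29.2 and 24.0 CPM. Its spread was that of the median member, with 1.21-fold between clone 2 and clone 3 (adjusted p = 0.00519), and the difference was not past the threshold without clone 2 (adjusted p = 0.144) or without clone 3 (adjusted p = 0.142).
Twist2 had 836, 1369 and 873 counts, or 33.6, 60.7 and 34.6 CPM. Clone 2 stood alone, 1.80-fold above clone 1 (adjusted p = 7.91e-56), and clones 1 and 3 differed by 1.03-fold (adjusted p = 0.670 without clone 2). This was the widest spread between clones of all members, with a coefficient of variation of 35.8%, above that of 94.1% of expressed genes. Clone 2 was also the library with the highest macrophage markers, and their part in the Twist2 level was not tested. Of the summed Twist counts, Twist2 took 55.9% in clone 1 (95% Wilson interval 53.4 to 58.4), 67.5% in clone 2 (65.5 to 69.5) and 59.0% in clone 3 (56.5 to 61.5). Per length, the order of the pair was not settled. Per kb of transcript (1628 nt for Twist1, 2525 nt for Twist2) the Twist2 share was 50.1% ± 6.41, with clone 2 above an equal share and clones 1 and 3 below it, and the mean was 46.5% without clone 2. With the shorter Twist2 transcript of 1329 nt, chosen after seeing the data, it was 65.5%. Another annotated gene, Gm29100, lies over 46.5% of the exon length of Twist2 on the opposite strand, and 56.7% of the 86-nt stretches of the Twist2 transcript matched it. Gm29100 is not a row of the table, and if strand was not used in counting, its reads could be among those of Twist2, so the Twist2 level is uncertain.

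**Figure D2:**
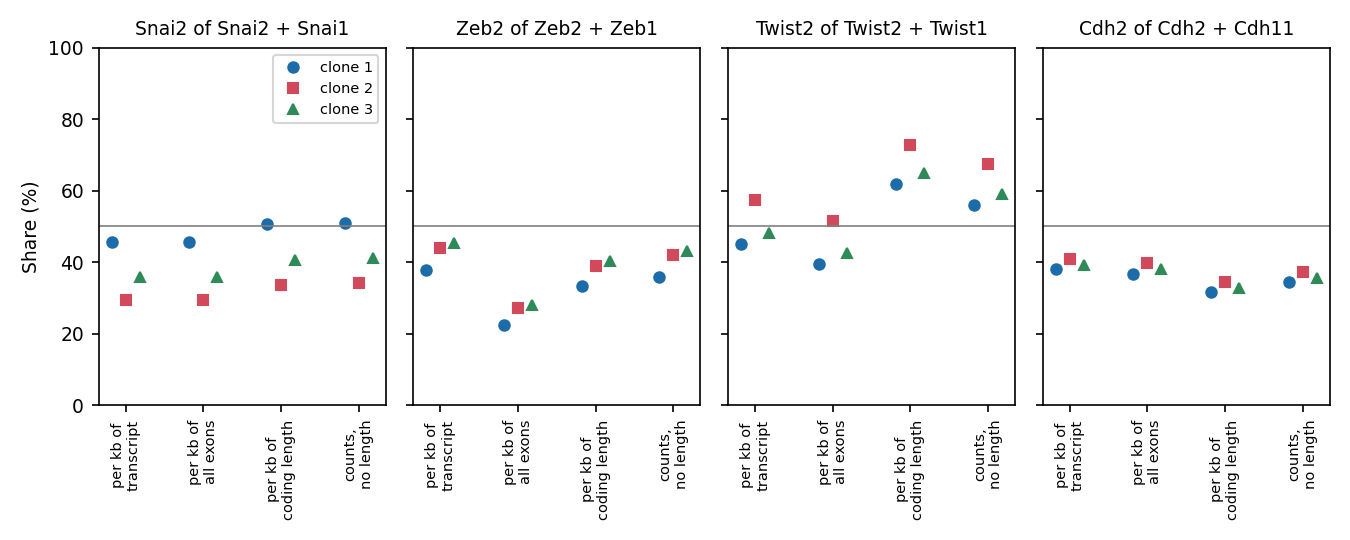
Share (%) of the first gene in the sum of each pair, in each of the 3 clones (1 point per clone), computed per kb of the main transcript, per kb of all merged exons, per kb of coding length and from counts alone. The shares of Zeb2 and of Cdh2 lie below the line at an equal share in every clone and with each length, the Snai2 share crosses it in clone 1 with coding length or counts, and the Twist2 share lies on both sides of it per kb of transcript or merged exons and above it with coding length or counts.

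The levels of the 4 cadherins differed widely. Cdh1, the E-cadherin gene (chromosome 8, 106603351 to 106670246), had 3, 4 and 5 counts in clones 1, 2 and 3, or 0.121, 0.177 and 0.198 CPM. These levels are close to the 3 counts that a count of 0 allows, and the exact Poisson 95% interval reached from 0.0249 to 0.353 CPM in clone 1 and from 0.0643 to 0.462 CPM in clone 3. No difference between clones was detectable at this depth. Cdh3, the P-cadherin gene, is its neighbour on the same strand and ends 46053 bases before the start of Cdh1 (106510891 to 106557297). It had 2930, 1871 and 3218 counts, or 118, 83.0 and 127 CPM, with clone 2 the lowest, by 1.54-fold (adjusted p = 6.22e-50). From all counts of the 3 clones, Cdh3 was 675-fold above Cdh1 per kb (387 to 1307, from the exact Poisson 95% interval of the 12 Cdh1 counts). P-cadherin is an epithelial and placental cadherin by its best known sites, and E- and P-cadherin were the closest pair of the 4 cadherin proteins, with 56.9% identity.
Cdh2, the N-cadherin gene of neural and mesenchymal cells, spans 16588877 to 16809246 of chromosome 18 (minus strand), the chromosome that also holds Zeb1 (5591860 to 5775467, plus strand). It had 8295, 8997 and 8684 counts, or 334, 399 and 344 CPM. Clone 2 was highest, by 1.20-fold (adjusted p = 1.80e-34), and clones 1 and 3 differed by 1.03-fold (adjusted p = 0.0879 without clone 2). Cdh11 (chromosome 8, 102632095 to 102785642, minus strand) had 15809, 15098 and 15680 counts, or 636, 670 and 621 CPM. It was the steadiest member, with a coefficient of variation of 3.88%, above that of 11.5% of expressed genes, and it also had the most counts of all members in each library. Its difference of 1.08-fold between clones 2 and 3 passed the test between libraries (adjusted p = 5.79e-10). Of the 86-nt stretches of the Cdh11 transcript, 8.45% matched transcripts of other genes within 2 mismatches, so that its counts are less certain than those of Cdh1, Cdh2 and Cdh3, for which no such stretch was found.
Of the summed level of the 4 cadherins per kb, Cdh11 made up 53.4% ± 0.944, Cdh2 34.8% ± 2.36, Cdh3 11.8% ± 2.79 and Cdh1 0.0175% ± 0.00415. The Cdh2 share of Cdh2 and Cdh11 was 38.0%, 41.0% and 39.2% per kb in clones 1, 2 and 3, and Cdh11 was above Cdh2 in every clone with each length used. Per kb, Cdh2 was 1980.1-fold (1134 to 3832) and Cdh11 3046-fold (1744 to 5894) above Cdh1, with intervals from the Cdh1 counts alone.

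Between clones, all 9 members that could be tested differed by more than counting noise, beside 62.5% of all tested genes and 76.2% of the 5872 genes whose counts were 500 or more throughout, as those of the 9 members were. The median between the highest and the lowest clone was 1.21-fold for the 9 members and 1.24-fold for all tested genes. All tested genes include those with fewer than 500 counts, where counting noise is larger. Their median and their shares at 1.5-fold and 2-fold are therefore not from genes of like depth. A called difference of at least 1.5-fold was found for Snai1, Twist2 and Cdh3, 3 of 9, beside 18.6% of tested genes, and a called difference of at least 2-fold for none, beside 7.93%. Clone 2 was the highest library for Snai1, Twist1, Twist2, Cdh2 and Cdh11, 5 of 9 members, beside 35.2% of tested genes. It was the lowest for Snai2 and Cdh3, 2 of 9, beside 34.8%. Clone 1 was highest for Snai2 and Zeb1 (2 of 9, beside 37.6%) and lowest for Snai1, Zeb2, Twist2 and Cdh2 (4 of 9, beside 39.4%). Clone 3 was highest for Zeb2 and Cdh3 (2 of 9, beside 27.2%) and lowest for Zeb1, Twist1 and Cdh11 (3 of 9, beside 25.8%). Without clone 2, the difference passed the threshold for Snai1, Zeb1, Zeb2 and Cdh3, 4 of 9, beside 45.3% of the genes tested without it. Without clone 1, it passed for 6 of 9, beside 31.7%, and without clone 3 for 8 of 9, beside 53%.
The clones also differed in other markers. The 6 proliferation markers summed to 368, 723 and 609 CPM in clones 1, 2 and 3, and all 6 were lowest in clone 1 and highest in clone 2. Snai1, Twist2 and Cdh2 were also lowest in clone 1 and highest in clone 2. Clones 1 and 3 were not told apart for Twist2 (adjusted p = 0.670) or Cdh2 (adjusted p = 0.0879, chi-square test without clone 2). The share of all tested genes with this order was not computed. The macrophage markers were highest in clone 2, all 13 that were tested, and the defining markers Csf1r, Lyz2 and C1qa were 4.73-fold, 5.88-fold and 6.53-fold higher there than in the lowest clone. Some other lists had their lowest sum in clone 2. Markers of neural and neural crest cells summed to 959, 651 and 900 CPM in clones 1, 2 and 3. Cartilage markers summed to 799, 549 and 777 CPM and endothelial markers to 20.4, 11.8 and 23.0 CPM. Muscle markers summed to 202, 200 and 224 CPM. Epithelial markers were highest in clone 2, at 23.5, 41.8 and 33.2 CPM. The part of any of these cells in the differences of Snai1, Twist2 and Cdh3 was not tested.

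**Figure D3:**
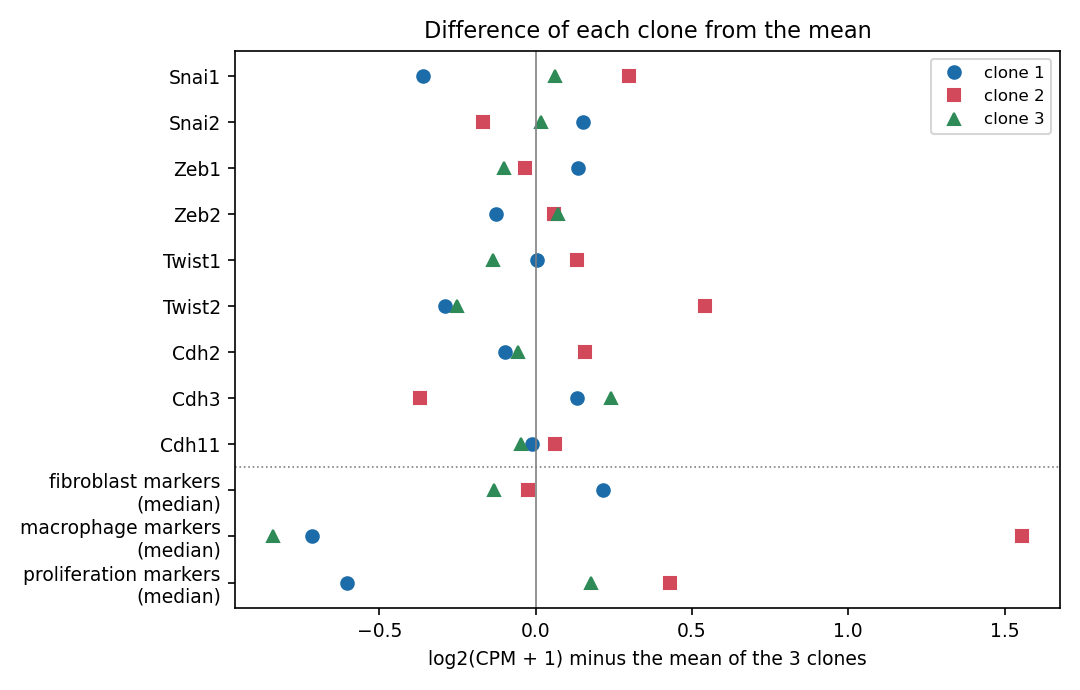
Difference of each clone from the mean of the 3 clones on the log2(CPM + 1) scale, with 1 point per clone, for the 9 expressed members and, under the dotted line, the median over 3 marker lists. Twist2 and Snai1 are highest in clone 2 (0.54 and 0.30), Cdh3 is lowest there (-0.37), and the macrophage markers deviate most (1.56 in clone 2).

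The other classical cadherins of types I and II were mostly below 1 CPM. Of the 14 genes listed beside the members, 4 were expressed, and 3 (Cdh7, Cdh9 and Cdh12) had no count in any clone. Cdh10, a type II cadherin known from brain, was the highest of them and had 1412, 655 and 1360 counts, or 13.7 ± 4.48 CPM per kb, which is near the level of Snai2. Like Cdh3, it was lowest in clone 2, by 1.96-fold (adjusted p = 2.23e-49). Cdh18 had 153, 86 and 151 counts and was also lowest in clone 2 (1.61-fold, adjusted p = 0.00139), whereas Cdh24 with 303, 261 and 315 counts did not pass the test (1.08-fold, adjusted p = 0.711). The endothelial cadherin Cdh5 had 4, 6 and 2 counts and the muscle cadherin Cdh15 had 1, 4 and 20. Of 12 atypical cadherins in the table, 6 were expressed. The giant protocadherin-like gene Fat1 was the highest of them at 84.0 ± 5.21 CPM per kb, above Cdh2 in mean level, followed by Fat4 at 4.30 ± 0.674 and Cdh13, which is anchored to the membrane by a lipid, at 3.01 ± 0.995 CPM per kb.

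**Figure D4:**
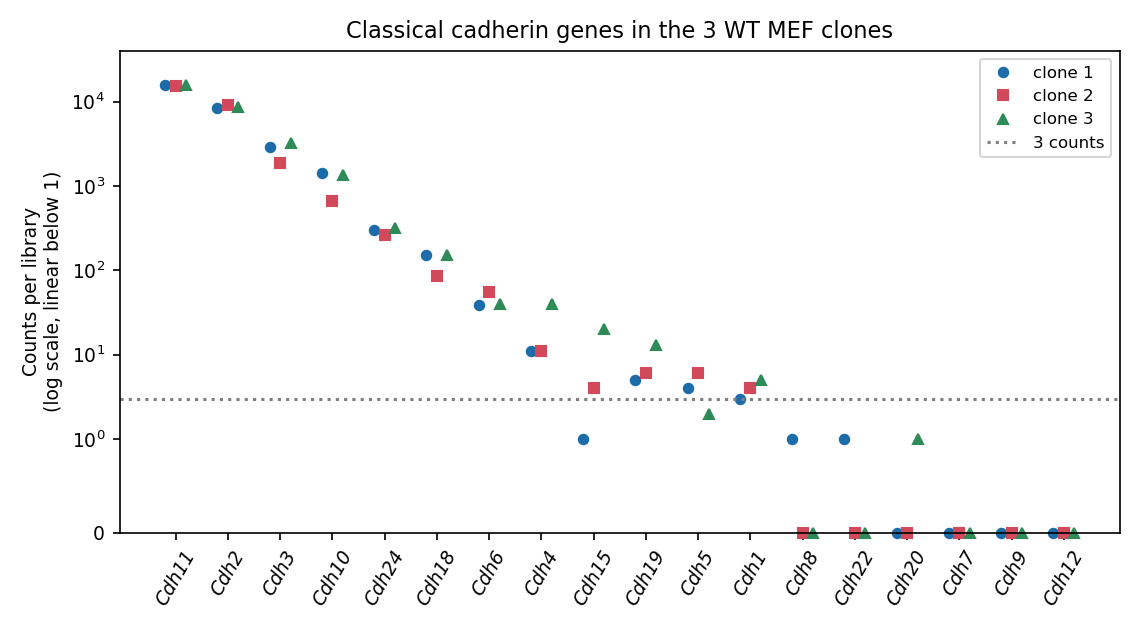
Counts per library (log scale, linear below 1) of the 4 cadherin members and the 14 other classical cadherin genes, with 1 point per clone, ordered by mean CPM, and a dotted line at 3 counts. Cdh11, Cdh2, Cdh3 and Cdh10 exceed 600 counts in every clone, and Cdh1 lies at the line with 3 to 5 counts.

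The partners of these proteins were expressed. Of 14 catenins and junction partners, 12 reached 1 CPM in every clone, and 6 of the 12 tested differed between libraries, beside 62.5% of all genes. Vcl, the actin-binding vinculin, stood at 350 ± 14.8 CPM per kb, Ctnnb1 (beta-catenin) at 163 ± 3.31 and Ctnna1 (alpha-catenin) at 119 ± 1.34, and Ctnna1 did not pass the test between libraries (1.02-fold, adjusted p = 0.333). All 15 corepressor genes were expressed, with a median of 28.2 CPM per kb beside 7.49 for all tested genes. The highest were Ctbp1, which Zeb proteins recruit, at 66.7 ± 2.69 CPM per kb, and the histone deacetylase genes Hdac1 at 50.6 ± 4.24 and Hdac2 at 42.8 ± 2.11. Of these 15 genes, 12 differed between libraries, beside 62.5% of all tested genes. The share was 76.2% for genes with 500 or more counts throughout, as all but Sirt1 had. None differed by 2-fold, beside 7.93% of all tested genes. All 12 genes for the turnover of Snail proteins were expressed too, and 9 of them differed between libraries, beside the same 62.5% and 76.2%. Of these genes, Usp27x, Btrc, Prkd1 and Fbxl5 had fewer than 500 counts in at least 1 clone, so the 76.2% is not for genes of their depth. The 12 genes were led by the kinase genes Csnk1e at 44.8 ± 2.05 CPM per kb and Gsk3b at 37.3 ± 3.22 and by the phosphatase gene Ctdsp1 at 22.2 ± 1.51.
All 7 genes for E-proteins, with which Twist proteins pair, and for Id proteins, which withhold E-proteins from DNA, were expressed. Id3 at 135 ± 22.8 CPM per kb and Id1 at 46.5, from 1472, 1339 and 1092 counts, had the highest levels, and the E-protein gene Tcf3 followed at 42.5 ± 0.905. Of the 7 genes, 6 differed between libraries, beside 62.5% of all tested genes and 76.2% of those with 500 or more counts throughout. The exception was Tcf3 (1.04-fold, adjusted p = 0.305). As a ratio between clones, the widest difference was that of Id4, with 156, 373 and 175 counts and a 2.63-fold range (adjusted p = 4.09e-34), highest in clone 2 as Twist2 was. Id4 is named by its values, since its mean level was just below the 10 CPM of the rule for naming.

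Few relatives of the Snail and Twist genes were expressed. Of 10 listed, 2 were, the tendon factor gene Scx at 3.41 ± 1.36 CPM per kb and Hand2 at 1.40 ± 0.141, and the third Snail gene, Snai3, had 4, 5 and 3 counts. Scx differed between libraries (2.33-fold, adjusted p = 6.02e-06), and Hand2 did not pass the test. Of 16 other mesenchymal transcription factor genes, 13 were expressed, led by the limb and craniofacial mesenchyme factor genes Prrx1 at 42.2 ± 5.80 CPM per kb and Prrx2 at 40.6 ± 11.2, both above every member that encodes a factor, and by Sox4 at 14.8 ± 0.442. Of the 14 tested, 8 differed between libraries, beside 62.5%. In contrast, 2 of 15 epithelial transcription and splicing factor genes were expressed, Klf5 at 1.01 ± 0.181 and Esrp2 at 0.921 ± 0.397 CPM per kb. Ovol1, Ovol2, Esrp1, Elf5 and Cdx2 had no count in any clone, and Grhl2, a regulator of Cdh1 in epithelia, had 1 count in all 3 clones together.

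Genes known as epithelial targets of Snail and Zeb repression were low as a group but not without exceptions. Of 23 such genes, 8 were expressed, beside 52.2% of all genes in the table, and the median of the list was 0.177 CPM per kb. Epcam had 5, 1 and 3 counts, Cldn7 0, 1 and 0, and Ocln 0, 2 and 0, whereas Crb3 and Marveld3 had no count. The highest of the 8 were Lama5, a laminin chain, at 30.4 ± 9.60 CPM per kb, the plakophilin gene Pkp2 at 19.3 ± 1.02 and the keratin gene Krt19 at 16.4 ± 6.54. Cldn4 (65, 14 and 82 counts) and Dsp (74, 13 and 32) were below 1 CPM in clone 2 only. Krt19 had 433, 842 and 575 counts and differed by 2.14-fold between libraries, with clone 2 highest (adjusted p = 7.09e-42). Of the 10 tested genes of this list, 9 differed between libraries, beside 62.5% of all tested genes. Mesenchymal targets stood at the other end, with all 16 expressed and a median of 943 CPM per kb. The matrix gene Sparc reached 5638 ± 277 CPM per kb, Acta2, the smooth muscle actin gene, 3368 ± 109 and Fn1, the fibronectin gene, 3281 ± 962, and 15 of the 16 differed between libraries, beside 62.5% of all tested genes and 76.2% of those with 500 or more counts throughout. Only Mmp2 of this list differed by at least 2-fold, with 34274, 15324 and 22535 counts.

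**Figure D5:**
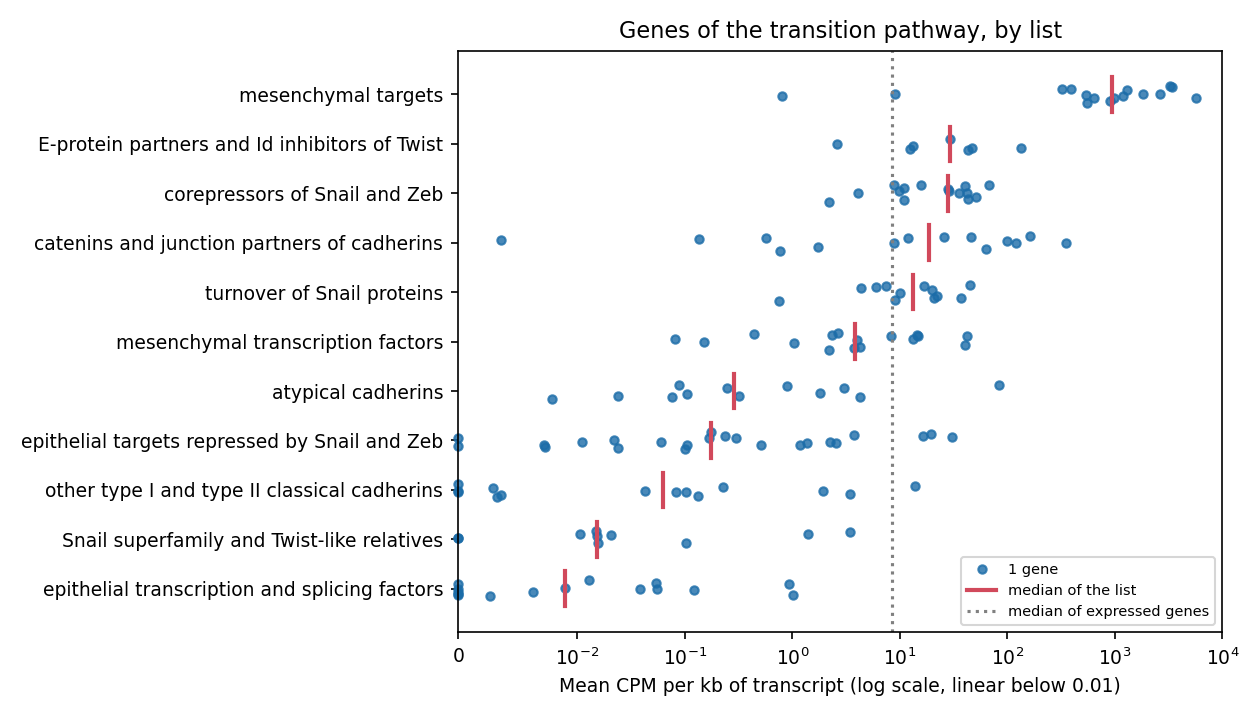
Mean CPM per kb of transcript (log scale, linear below 0.01) of the genes in 11 lists around the members, with 1 point per gene, a red line at the median of each list and a dotted line at the median expressed gene. The medians run from 943 for mesenchymal targets to 0.00896 for epithelial transcription and splicing factors.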

How the data were processed

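PolyA-selected RNA of 3 WT MEF clones was sequenced as 86-nt single-end reads. The authors used TopHat (2.0.0) for alignment, with up to 2 mismatches and 5 hits per read, together with Bowtie (version 0.12.7) and with version 0.1.16 of Samtools. They deposited raw counts per gene from HTSeq. The methods name the mm10 build and the submitters' processing notes mm9, and the annotation, HTSeq version and strand setting are not given in the sources used here.

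CPM were computed from the counts with TMM library sizes (edgeR 4.0.16, R 4.3.3). Positions, exons and transcripts came from GENCODE M21 (GRCm38), which matched 99.7% of the genes. Length is that of the longest transcript with the longest coding sequence. Proteins were translated from these transcripts and aligned with Biopython 1.88, and shared 86-nt stretches were found with blastn 2.17.0. An edgeR or DESeq2 test had no contrast here and was not run. Alternatives were DESeq2 1.42.0 size factors, total counts, other count thresholds and lengths, and leaving out each clone. Intervals are exact Poisson or Wilson intervals of the counts, so they cover counting error only. Reads carry no molecular identifiers by which duplicate reads could be told apart. The members and lists were chosen with earlier results of these data known. Of the genes of each list, the 3 highest per kb were named, with any gene called at 2-fold or more and at least 10 CPM, and others are given as examples chosen by their values. Of the list genes, Dchs2 and the macrophage marker Adgre1 were not matched. Likeness of pattern to other genes was not computed over 3 libraries.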

Additional observations from a re-analysis of the deposited data

How the results depend on the processing

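The number of expressed members was 9 with DESeq2 size factors, total counts, a threshold of 10 counts and without each clone, and 10 with 1 count in every clone. The number of members differing between clones was 9 with either scaling, beside 62.4% of tested genes with DESeq2 factors and 63.9% with total counts. It was also 9 without a filter (beside 48.1%), with at least 50 counts (66.7%) and with at least 500 counts. There the share was 77.4%, with p-values adjusted over those genes alone. When a difference of at least 1.5-fold was also asked for, the number was 3, beside 18.6%. Leaving out 1 clone gave 4 (without clone 2, beside 45.3%) to 8 (without clone 3, beside 53%), where fewer libraries are compared. For all genes, 2274 were called with the 1.5-fold limit, 4546 with at least 500 counts (chosen after seeing the data), where fewer genes are tested, and 3893 (without clone 1) to 6531 (without clone 3) when 1 clone was left out. The Zeb2 share moved from 42.3% per kb of transcript to 25.9% per kb of merged exons and 37.5% per kb of coding length. The Twist2 share was 66.6% per kb of coding length, 60.8% in counts and 65.5% with the shortest transcript (chosen after seeing the data), and the Cdh2 share of Cdh2 and Cdh11 was 32.9% per kb of coding length and 35.8% in counts. In these shares, only the length differs. The Snai2 share stayed within 1 SD with each length and without each clone. In the order of members, 10 of 45 pairs turned with counts in place of levels per kb, and 1 to 3 pairs with another length or without a clone. Scaling with DESeq2 factors left 97 list genes expressed, as with TMM. Depth limits Cdh1, whose differences between clones cannot be seen at 3 to 5 counts. No analysis of samples paired across groups was possible because the series has 1 group, so no samples of different groups share a number.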
